A study of Mus with 8 samples.

Results

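Interferon-stimulated genes are the genes that cells switch on after interferon binds its receptor, and 34 of them were followed here in interscapular brown adipose tissue of mice labelled as Hilpda knockout (KO) or wild type. The 34 were a named list of well-known members: viral RNA sensors, transcription factors of the pathway, the ISG15 system, the IFIT and OAS families, other antiviral proteins, guanylate-binding proteins with 1 chemokine, and antigen-processing genes. A member was measured by a probe set annotated with that gene alone. Of the 34 genes, 33 were measured, among 30743 named genes in all, and Ifi44 had no probe set named for it alone. Irf1 had 2 probe sets, of which the one with the higher mean was used, and the other 32 measured members had 1.

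Each group held 4 mice on a C57BL/6 background, with 1 array of total RNA per mouse and no technical replicates. The KO group carried the genotype HILPDA KO and the control group was wild type. HILPDA is a small lipid droplet protein that inhibits adipose triglyceride lipase. The sources used here give neither the age of the mice nor how, or in which cells, the gene was deleted. All 8 mice were labelled female, yet the Y-linked gene Uty read 9.31 to 10.93 and Xist, the RNA of the inactive X chromosome, read 3.49 to 4.10, so the sex label and the arrays disagree in both groups alike.

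Type I interferons signal through IFNAR1 and IFNAR2, which activate the kinases JAK1 and TYK2. STAT2 and IRF9 then act within the complex ISGF3, which binds interferon-stimulated response elements and switches on genes such as those of the IFIT and OAS families. Interferon gamma signals through a receptor of its own and induces IRF1, the guanylate-binding proteins, the chemokines CXCL9 and CXCL10 and much of antigen processing. In adipose tissue these genes are read out by adipocytes, endothelial cells and resident macrophages alike, so a bulk level mixes them.

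All values are log2 RMA values, and a difference of 1 is a doubling. The arrays formed 2 sets that stood apart on most genes: replicates 1 and 2 of both groups (set 1), with medians over named genes of 3.92 to 3.99, and replicates 3 and 4 of both groups (set 2), with medians of 4.92 to 4.96. Each set held 2 KO and 2 wild type arrays, so the comparison was made with the set as a covariate and within each set. Values per array are given below in the order of replicates 1 to 4. Hilpda itself read 4.45, 4.37, 5.60 and 5.51 on the KO arrays against 4.37, 4.28, 6.00 and 5.92 on the wild type arrays. It was lower on the KO arrays of set 2 and not in set 1, with a difference of -0.16 (SE 0.11) over both sets (limma, Benjamini-Hochberg adjusted p = 0.983). Because the targeted gene did not separate the groups of set 1, KO stands below for the arrays labelled KO. The brown adipocyte list (Ucp1, Cidea and others) was above background on all arrays for 11 of its 11 measured genes. Genes of other tissues moved between single arrays: 20 skeletal muscle genes averaged 5.56 on KO replicate 3 and 10.82 on wild type replicate 3, and 19 liver genes averaged 12.51 on KO replicate 1 and 7.59 on wild type replicate 2. Their part in the results on interferon-stimulated genes was not tested.

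Most of the interferon-stimulated genes were detected in both genotypes. As a background level, 1228 olfactory receptor genes, which serve the detection of odours, had a median of 3.25 to 3.85 and a 95th percentile of 3.79 to 4.84 per array. On all 8 arrays 23 of the 33 members (69.7%) lay above that percentile, against 45.0% of all named genes. Isg15, Oas3, Oasl1 and Mx1 lay above it on none (12.1% of members, against 37.9% of all genes), so for these a difference cannot be read at the level of the arrays. Oas1a, Oasl2 and Mx2 lay above it on 4 arrays, Oas2 and Rtp4 on 6 and Cxcl10 on 2. The step from set 1 to set 2 was 0.49 to 1.76 over the members with a median of 1.32, and its median over all named genes was 0.88. The sets differ in scale and the 2 medians cover genes of unlike level. The larger step of the members is therefore not read as a rise of these genes in set 2.

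**Figure D1:**
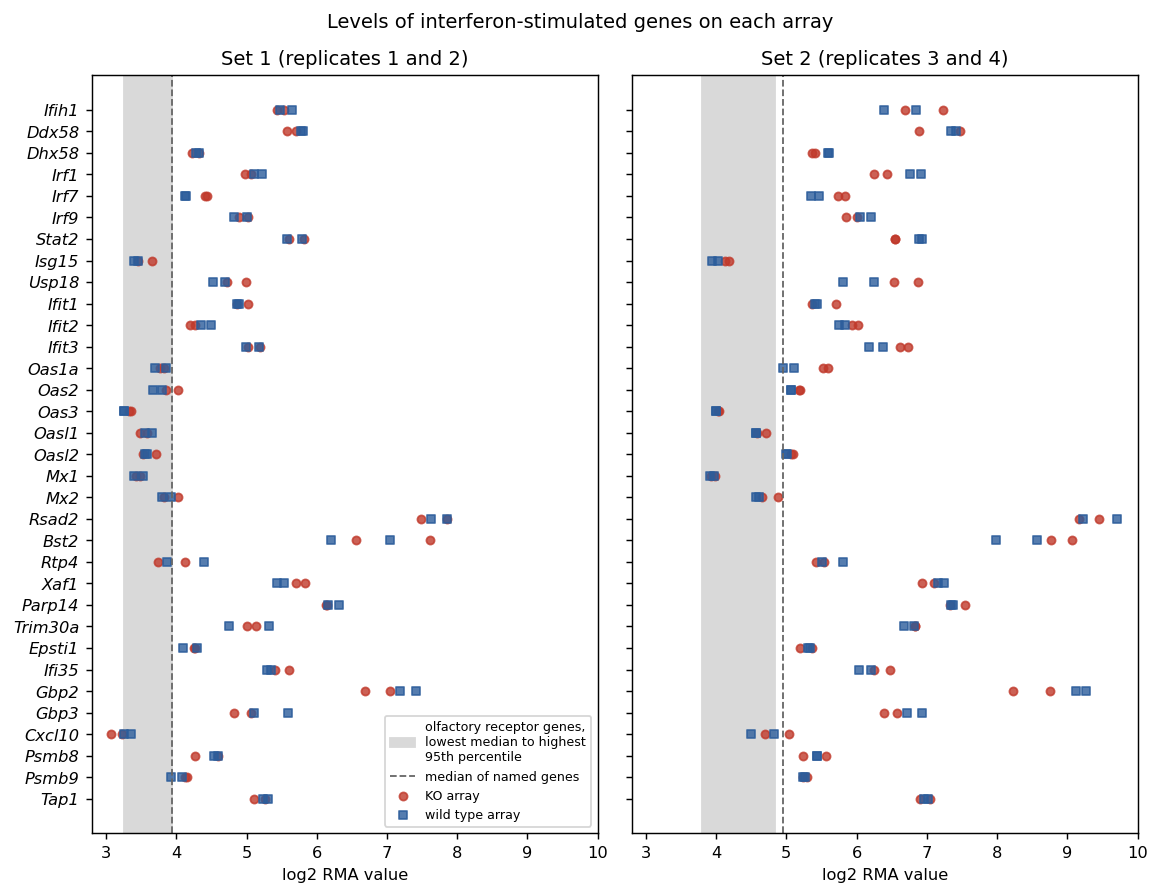
Log2 RMA value (horizontal axis) of each of the 33 measured genes on each array, with set 1 in the left panel and set 2 in the right panel; circles are KO arrays, squares wild type arrays, the grey band runs from the lowest median to the highest 95th percentile of olfactory receptor genes, and the dashed line is the median of named genes. Isg15, Oas3, Oasl1 and Mx1 lie within the band in both panels, and the symbols of the genotypes lie close together for most genes.

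The first question was whether the KO arrays differed from wild type in this gene group. No member passed the test with the set as a covariate: 0 of 33 had an adjusted p under 0.05 (limma, Benjamini-Hochberg over 30743 genes), and 0% of all named genes did. The smallest adjusted p among the members was 0.983. Differences ran from -0.57 for Gbp2 to 0.55 for Bst2, with a median of 0.03, beside a median of 0.01 over all named genes. The difference was above 0 for 20 members and below 0 for 13, which is 60.6% above 0 against 52.6% of all genes, and 17 were above 0 when the arrays were quantile-normalized or centred on their medians. At an unadjusted p under 0.05 there were 6 members (18.2%) against 4.82% of all genes. With 1 array left out this count was 3 to 8, the lowest without KO replicate 4, where 3.74% of all genes had such a p. Irf7, Usp18 and Oas1a were the 3 on the higher side (9.09%, against 2.49%), and Irf1, Gbp2 and Gbp3 the 3 on the lower side (9.09%, against 2.33%).

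The intervals show what size of difference these arrays could miss. The half-width of the 95% confidence interval was 0.14 to 0.65 over the members, with a median of 0.23. Among the 23 members above background on all arrays, the interval excluded a doubling and a halving of the measured value for 22. The exception was Bst2, whose interval ran from -0.11 to 1.20. For members at background on some or all arrays, a narrow interval sets no such limit on the RNA. In a bulk tissue sample, fewer cells of a type that expresses a gene and less RNA of it per cell cannot be told apart.

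**Figure D2:**
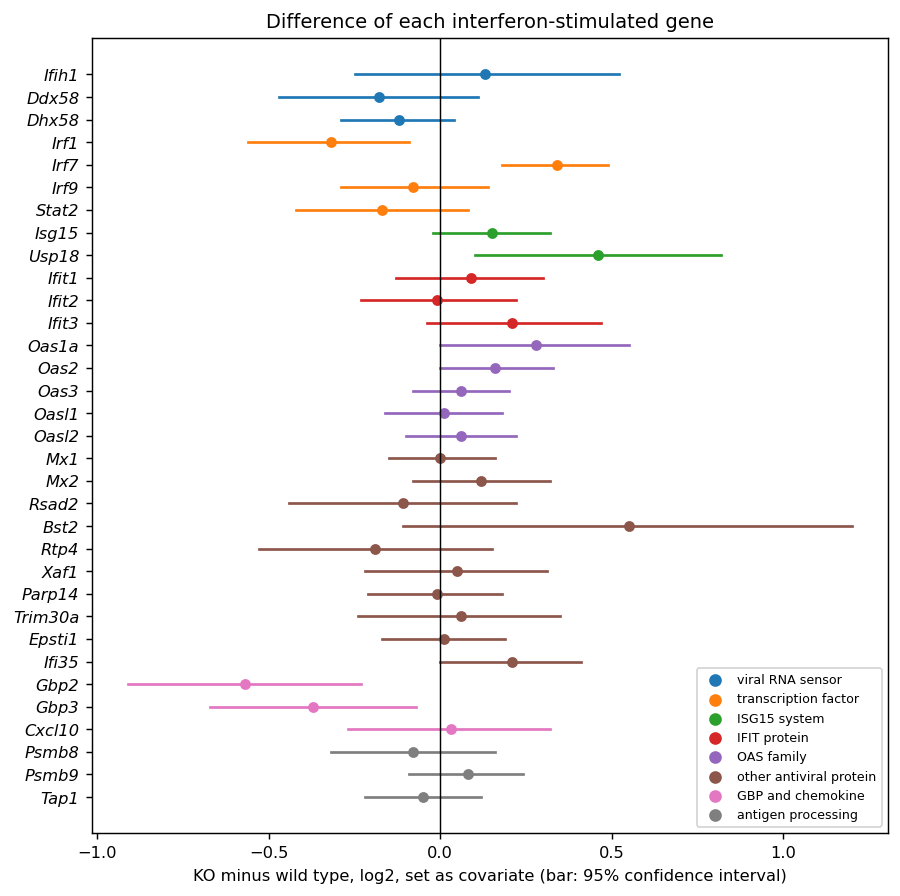
Difference between KO and wild type (horizontal axis, log2, set as covariate) of each of the 33 measured genes; points are limma estimates over 8 arrays, bars their 95% confidence intervals, and colours the role groups. Gbp2 at -0.57 and Bst2 at 0.55 lie farthest from 0, and the interval of Bst2 is the widest.

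Within the sets, complete separation of the 2 KO arrays from the 2 wild type arrays was common over the whole array, so it is given against that background. In set 1, KO lay above wild type for 7 members (21.2%, against 18.9% of all genes) and below for 7 (21.2%, against 19.4%). In set 2, KO lay above for 14 members (42.4%, against 24%) and below for 7 (21.2%, against 19.1%). The 14 include Isg15, Oas3 and Oasl1, which lay at background on all 8 arrays and whose order cannot be read. They also include Trim30a, with 6.83 on KO arrays against at most 6.82 on wild type arrays. Mx2, among the 14 as well, lay at background on every array of set 2 except KO replicate 4, so its order cannot be read either. In both sets KO lay above for 5 members, namely Irf7, Usp18, Oas2, Oas3 and Ifi35 (15.2%, against 2.85%). Of these, Oas3 lay at background on all 8 arrays and so shows no difference that can be read. Oas2 lay at background on KO replicate 2 and wild type replicate 1. In both sets KO lay below for 3 members, namely Irf1, Gbp2 and Gbp3 (9.09%, against 2.46%). The sign of the difference was the same in both sets for 23 members (69.7%, against 43.0%), of which 14 were higher on the KO arrays and 9 lower. The 23 include Isg15 and Oas3, at background on all 8 arrays, and Oas1a and Oasl2, at background on every array of set 1. Some of these signs rest on differences near 0, such as 0.02 for Ifit3 in set 1 and -0.01 for Tap1 in set 2. The count is therefore not read as a shared change. Differences were above 0 for 18 members in set 1 (54.5%, against 51.0%) and for 20 in set 2 (60.6%, against 53.6%).

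The viral RNA sensors start the response. IFIH1 (MDA5) binds long double-stranded RNA, RIG-I (the product of Ddx58) binds short RNA with a triphosphate end, and DHX58 (LGP2) tunes both. Ifih1 read 5.54, 5.44, 7.23 and 6.69 on the KO arrays against 5.65, 5.48, 6.39 and 6.85 on the wild type arrays, and the genotypes overlapped in both sets (difference 0.13, SE 0.16). Ddx58 read 5.70, 5.58, 7.47 and 6.89 against 5.80, 5.77, 7.42 and 7.35. Its KO values lay below in set 1 and overlapped in set 2, where KO replicate 3 was the highest of the 4 (difference -0.18, SE 0.12). Dhx58 read 4.33, 4.23, 5.40 and 5.36 against 4.33, 4.28, 5.59 and 5.61. The genotypes overlapped in set 1 and KO lay below in set 2, with a difference of -0.12 (SE 0.07).

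The transcription factors did not move one way. IRF7, which switches on the type I interferon genes and is itself interferon-induced, had the smallest unadjusted p of all members. Irf7 read 4.41, 4.44, 5.73 and 5.84 on the KO arrays against 4.14, 4.12, 5.47 and 5.35 on the wild type arrays. Every KO value lay above both wild type values of its set, by 0.30 on average in set 1 and 0.38 in set 2. Over both sets the difference was 0.34 (SE 0.07), a fold of 1.26 (limma adjusted p = 0.983).

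IRF1, the main early target of interferon gamma, lay on the other side. Irf1 read 5.06, 4.98, 6.25 and 6.43 on the KO arrays against 5.22, 5.11, 6.76 and 6.91 on the wild type arrays. KO lay below wild type in both sets, by 0.15 on average in set 1 and 0.50 in set 2 (difference over both -0.32, SE 0.10, limma adjusted p = 0.983). This value rests on the choice of probe set. The other probe set of Irf1, with a mean of 3.32 near background, was higher on the KO arrays by 0.18, and the mean of both probe sets gave -0.07.

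STAT2 and IRF9 are subunits of ISGF3. Stat2 read 5.82, 5.60, 6.55 and 6.54 on the KO arrays against 5.58, 5.79, 6.89 and 6.93 on the wild type arrays. It overlapped in set 1 and lay below wild type in set 2, by 0.37 on average there, and its difference over both sets was -0.17 (SE 0.11). Irf9 differed by -0.08 (SE 0.09) and likewise overlapped in set 1 and lay below in set 2.

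The ISG15 system had 2 measured members. ISG15 is a ubiquitin-like protein that is attached to other proteins, and USP18 removes it and also blocks the type I interferon receptor. Usp18 read 4.99, 4.72, 6.53 and 6.88 on the KO arrays against 4.70, 4.52, 5.80 and 6.25 on the wild type arrays. KO lay above wild type in both sets, by the narrow gap of 4.72 to 4.70 in set 1, and the difference was 0.46 (SE 0.16), a fold of 1.38 (limma adjusted p = 0.983). Isg15 read 3.45, 3.66, 4.18 and 4.12 against 3.40, 3.45, 3.94 and 4.03, all within the range of olfactory receptor genes. Its difference of 0.15 (SE 0.07) therefore lies at background level.

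The IFIT proteins bind viral RNA and block its translation. Ifit3 read 5.02, 5.19, 6.62 and 6.73 on the KO arrays against 5.18, 4.99, 6.37 and 6.18 on the wild type arrays. The genotypes overlapped in set 1 and KO lay above in set 2, by 0.40 on average there (0.21 over both sets, SE 0.11). Ifit1 read 4.87, 5.02, 5.36 and 5.70 against 4.89, 4.87, 5.43 and 5.41 and overlapped in both sets, with a difference of 0.09 (SE 0.09). Ifit2 read 4.19, 4.27, 5.93 and 6.02 against 4.50, 4.35, 5.83 and 5.75. It was the IFIT gene with opposite order in the sets, lower on KO in set 1 by 0.20 and higher in set 2 by 0.19, which left -0.01 (SE 0.10) over both.

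The OAS proteins make short oligoadenylates that activate the nuclease RNase L, while the OAS-like proteins act without that product or beside it. All 5 measured members had a difference above 0 (100%, against 52.6% of all genes). However, 0 of the 5 lay above background on all arrays, and Oas3 and Oasl1 lay above it on none. The shared sign is therefore not read as a change of the family. Oasl1 also lay on the other side of 0 with quantile normalization (-0.05) or median centring (-0.01). Oas1a read 3.82, 3.77, 5.59 and 5.52 on the KO arrays against 3.85, 3.69, 4.95 and 5.11 on the wild type arrays. In set 1 it was at background on every array and the genotypes overlapped, and in set 2 KO lay above by 0.53 on average (0.28 over both sets, SE 0.12, limma adjusted p = 0.983). Oas2 read 4.02, 3.85, 5.18 and 5.20 against 3.67, 3.80, 5.06 and 5.06, above wild type in both sets by small amounts (0.16, SE 0.07). In set 1 its values on KO replicate 2 and wild type replicate 1 lay at background. Oas3 (0.06), Oasl2 (0.06) and Oasl1 (0.01) differed by less than their standard error or about as much as it.

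**Figure D3:**
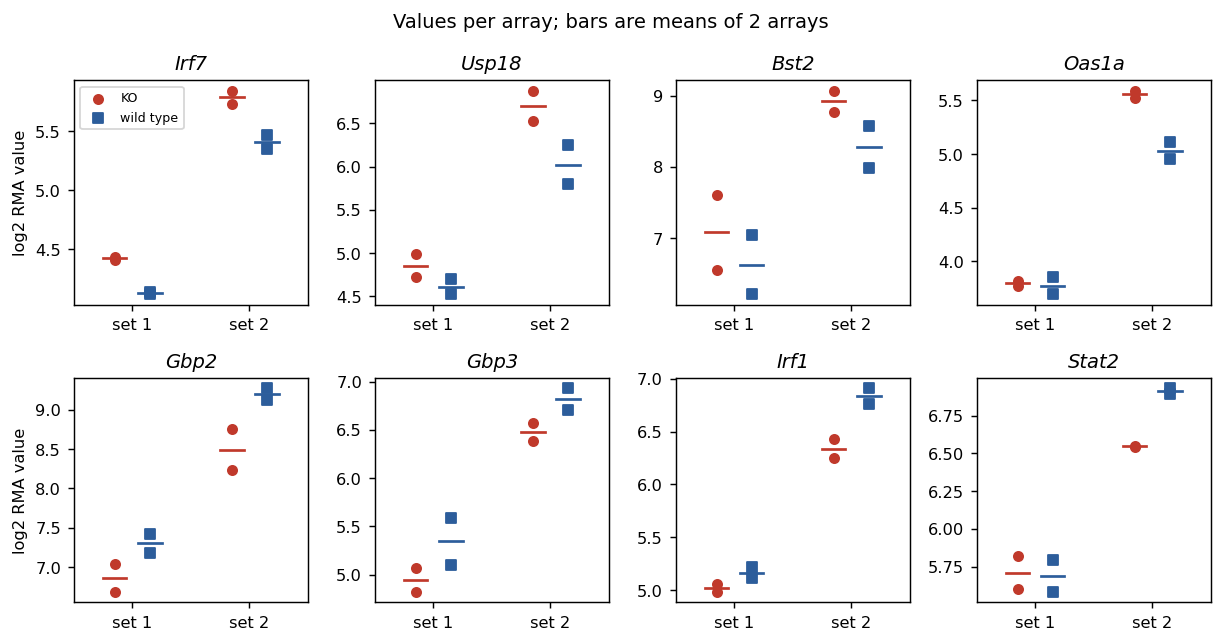
Log2 RMA values (vertical axis) of 8 genes on each array by set; red circles are KO arrays, blue squares wild type arrays and short bars the mean of 2 arrays. Irf7 and Usp18 lie above wild type in both sets, Gbp2, Gbp3 and Irf1 below in both, and Bst2, Oas1a and Stat2 separate in set 2.

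Of the other antiviral proteins 10 were measured. Bst2 encodes tetherin, which holds budding virus at the cell surface. It read 7.61, 6.56, 8.77 and 9.07 on the KO arrays against 7.05, 6.21, 7.99 and 8.57 on the wild type arrays. The genotypes overlapped in set 1, since wild type replicate 1 exceeded KO replicate 2, and KO lay above in set 2. Its difference of 0.55 (SE 0.28, limma adjusted p = 0.983) was 0.36 without KO replicate 1 and 0.78 without KO replicate 2.

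Rsad2 encodes viperin, an enzyme of the endoplasmic reticulum and lipid droplet surface that makes a chain-terminating nucleotide. It read 7.86, 7.49, 9.45 and 9.16 on the KO arrays against 7.63, 7.85, 9.23 and 9.70 on the wild type arrays. The genotypes overlapped in both sets, and its difference was -0.11 (SE 0.14). Ifi35, an interferon-induced leucine zipper protein, read 5.60, 5.40, 6.24 and 6.47 against 5.29, 5.35, 6.03 and 6.21. KO lay above in both sets by a small margin, with a difference of 0.21 (SE 0.09, limma adjusted p = 0.983).

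Xaf1, which encodes a binding partner of the apoptosis inhibitor XIAP, read 5.83, 5.70, 6.93 and 7.10 on the KO arrays against 5.54, 5.43, 7.25 and 7.16 on the wild type arrays. KO lay above wild type in set 1, by 0.28 on average, and below in set 2, by 0.19. The remaining members of the role group differed from -0.19 to 0.12. Rtp4, which encodes a chaperone of receptors, differed by -0.19 (SE 0.15), and Mx2, a dynamin-like GTPase that traps viral nucleoprotein complexes, by 0.12 (SE 0.09). Of the 8 arrays, Rtp4 lay above background on 6 and Mx2 on 4. Trim30a (0.06), Epsti1 (0.01), Mx1 (0.00) and Parp14, an ADP-ribosyltransferase (-0.01), differed by less than their standard errors.

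The guanylate-binding proteins are interferon gamma targets that attack the vacuoles of intracellular pathogens. Gbp2 read 7.04, 6.68, 8.75 and 8.23 on the KO arrays against 7.18, 7.42, 9.27 and 9.12 on the wild type arrays. Every KO value lay below both wild type values of its set, by 0.44 on average in set 1 and 0.70 in set 2. The difference over both sets was -0.57 (SE 0.15), a level 1.49-fold lower (limma adjusted p = 0.983). Gbp3 read 5.07, 4.82, 6.57 and 6.39 against 5.59, 5.10, 6.93 and 6.71. KO lay below in both sets as well, and the difference was -0.37 (SE 0.13, limma adjusted p = 0.983). Guanylate-binding protein genes are related in sequence, so their probes may share signal, and each value is uncertain to that extent. Cxcl10, the chemokine that draws CXCR3-bearing lymphocytes, differed by 0.03 (SE 0.13) and was near background on the arrays of set 1.

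The 3 antigen-processing members differed by at most 0.08 in either direction. PSMB8 and PSMB9 are catalytic subunits of the immunoproteasome, and TAP1 carries its peptides into the endoplasmic reticulum. Psmb8 read 4.59, 4.27, 5.56 and 5.24 on the KO arrays against 4.59, 4.54, 5.43 and 5.44 on the wild type arrays, and overlapped in both sets (-0.08, SE 0.10). Psmb9 read 4.12, 4.15, 5.24 and 5.29 against 4.08, 3.93, 5.26 and 5.24 (0.08, SE 0.07). Tap1 read 5.10, 5.26, 6.90 and 7.05 against 5.31, 5.23, 7.01 and 6.96 (-0.05, SE 0.07). Psmb9 lay narrowly above wild type in set 1 and overlapped in set 2, and Tap1 overlapped in both.

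The next question was whether the KO difference was the same in both sets. Within set 1, 0 of 33 members passed (0% of all genes) and 2 had an unadjusted p under 0.05, Irf7 and Xaf1, beside 7.73% of all genes. Within set 2, 0 members passed (0.00325% of all genes did, which is Dbp alone) and 8 (24.2%) had an unadjusted p under 0.05, beside 15.1% of all genes. Without KO replicate 4 or without wild type replicate 3 the count was 4 (12.1%), beside 13.8% and 10.9% of all genes. For the difference between the sets, 0 members passed against 0.494% of all genes, and 3 (9.09%) had an unadjusted p under 0.05 against 14.9%. These were Oas1a (0.50, SE 0.16), Xaf1 (-0.47, SE 0.16) and Ifit2 (0.38, SE 0.15), with adjusted p of 0.201, 0.229 and 0.285 (limma). Oas1a lay at background on every array of set 1, so a KO difference in that set could not be read. The next by p were Stat2 (-0.40, SE 0.17), Irf1 (-0.36, SE 0.16) and Ifit3 (0.38, SE 0.18). Signs were opposite for 10 members, 6 lower in set 1 and higher in set 2 and 4 the other way.

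**Figure D4:**
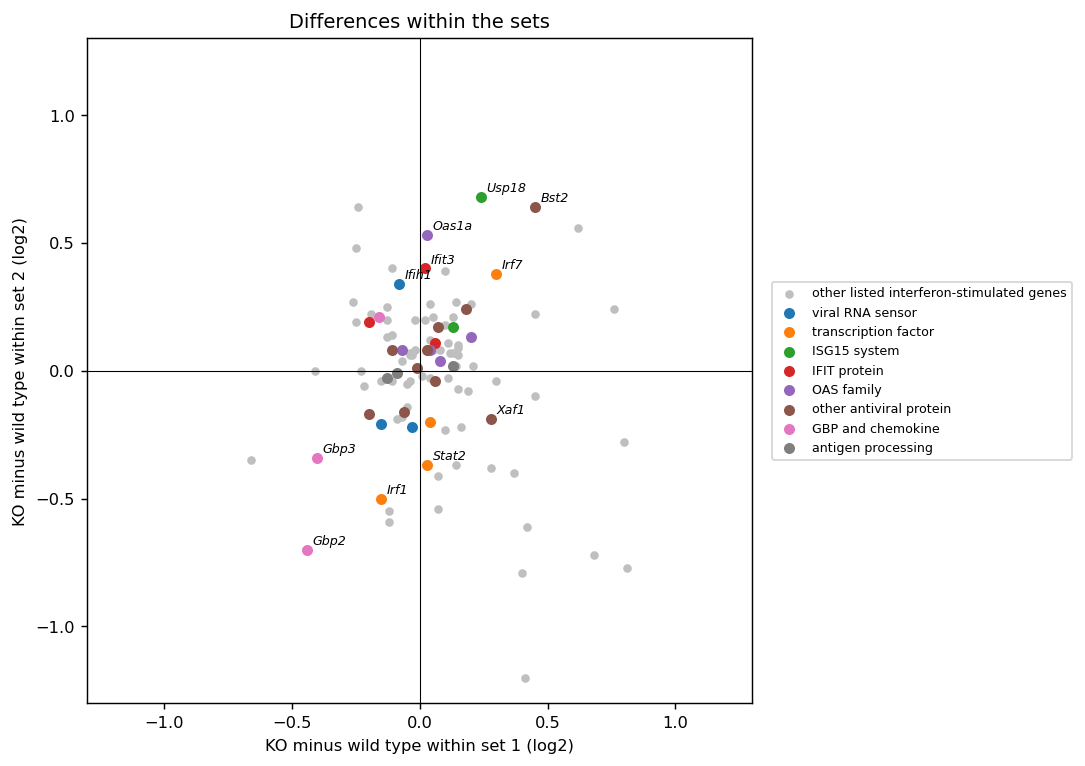
Difference between KO and wild type within set 1 (horizontal axis, log2) against that within set 2 (vertical axis, log2); coloured points are the measured members by role and grey points other listed interferon-stimulated genes, of which 1, Cd274, lies beyond the axes. Usp18, Bst2 and Irf7 lie at the upper right, Gbp2, Gbp3 and Irf1 at the lower left, and a group of grey points, mostly guanylate-binding proteins, at the lower right.

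The members going both ways, their mean per array differed little. After subtracting each gene's mean within its set, the members averaged from -0.05 to 0.05 per array, and all named genes from -0.02 to 0.02. In set 1 wild type replicate 1 was the highest of the 4 arrays for 13 members (39.4%), against 23.3% of all named genes. In set 2 KO replicate 4 was the highest for 15 (45.5%), against 26.3%.

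A wider list of 87 other interferon-stimulated genes, of which 73 were measured, moved as little on average. Its median difference was 0.02, with 44 genes above 0 and 29 below, and 0 passed with the set as a covariate. At an unadjusted p under 0.05 there were 5 on the higher side (6.85%, against 2.49% of all genes) and 4 on the lower (5.48%, against 2.33%). The higher ones were Ifi207 (0.59, SE 0.16), Ifi211 (0.50, SE 0.14) and Ifi204 (0.34, SE 0.14) of the Ifi200 family of DNA-binding proteins, Ifitm1 (0.25, SE 0.10), a membrane protein that hinders virus entry, and Herc6 (0.23, SE 0.07), the mouse ligase that attaches ISG15. The lower ones were Cd274 (-1.66, SE 0.52), which encodes the checkpoint ligand PD-L1, Igtp (-0.50, SE 0.14) and Iigp1 (-0.34, SE 0.13), GTPases of pathogen vacuoles, and Gbp7 (-0.35, SE 0.14). Cd274 read 7.59, 6.63, 11.73 and 9.53 on the KO arrays against 9.41, 9.57, 11.79 and 11.35 on the wild type arrays, with KO below in set 1 and overlap in set 2.

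Most of the other guanylate-binding proteins had opposite signs in the sets, and the family was looked at together after its values were seen. Of 7 measured Gbp genes, Gbp2 and Gbp3 included, KO lay below wild type in set 2 for all 7 (19.1% of all genes did), with a median difference of -0.70. In set 1, 3 were lower and 4 higher, with a median of 0.40. Gbp7 differed by -0.12 in set 1 and -0.59 in set 2, Gbp4 by 0.41 and -1.20, Gbp8 by 0.42 and -0.61, Gbp9 by 0.40 and -0.79 and Gbp11 by 0.81 and -0.77. Gbp11 and the Ifi200 family gene Mndal passed when the set difference itself was tested (Gbp11 -1.58, adjusted p 0.0498; Mndal -1.40, adjusted p 0.0467; limma). Both calls were lost with each single array left out, with a variance trend, with ordinary least squares and with median centring. The skeletal muscle list had a median difference of -1.63 in set 2, with all 20 genes lower on average, against -0.10 in set 1. Its genotypes overlapped in set 2: the list averaged 5.56 and 10.53 on the KO arrays against 10.82 and 9.10 on the wild type arrays. The part of muscle RNA in these differences was not tested.

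Upstream of the members, the interferon genes themselves read at or near background. None of the 19 measured of 21 listed ligand genes lay above the olfactory receptor reference on all arrays, 6 lay above it on at least 1, and 13, Ifng among them, on none. Their median difference was 0.04 and 0 passed. Of 13 measured genes for receptors, kinases and transcription factors (14 listed), 0 passed, and 2 (15.4%) had an unadjusted p under 0.05, both lower, against 2.33% of all genes on that side. Ifnar1, a chain of the type I receptor, read 8.46, 8.52, 10.55 and 10.25 on the KO arrays against 8.78, 8.75, 10.74 and 10.59 on the wild type arrays, below wild type in both sets by 0.27 (SE 0.08, limma adjusted p = 0.983). Ifngr2, the signalling chain of the interferon gamma receptor, differed by -0.23 (SE 0.09), and Ifngr1, its ligand-binding chain, by 0.64 (SE 0.29), with 0.14 in set 1 and 1.14 in set 2.

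Other branches of the pathway showed small medians and 0 genes past the threshold with the set as a covariate. The median difference was 0.01 over 8 feedback inhibitors such as Socs1 and Socs3, 0.01 over 14 genes of nucleic acid sensing such as Sting1 and Myd88, and -0.10 over 5 chemokines induced by interferon gamma. Over 14 genes of the MHC class I pathway, all above background on all arrays, it was -0.02, with -0.13 in set 1 and 0.06 in set 2. The set difference of the KO effect had a median of 0.31 over these 14 genes, against 0.09 over named genes above the median level. Of the 14, 7 (50%) had an unadjusted p under 0.05 for it, while 0 passed (limma). The share was 14.9% of all genes, and 22.8% when only genes above the median level were fitted. Erap1, an aminopeptidase that trims peptides, differed by -0.34 in set 1 and 0.65 in set 2, and the class I heavy chain gene H2-K1 by -0.34 and 0.48. Over 7 genes of the MHC class II pathway the median KO difference was 0.01, with 0.15 in set 1 and -0.13 in set 2. Of these 7 genes, 2 lay above background on all arrays. Cxcl9, which like Cxcl10 binds CXCR3, differed by -0.26 (SE 0.22).

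**Figure D5:**
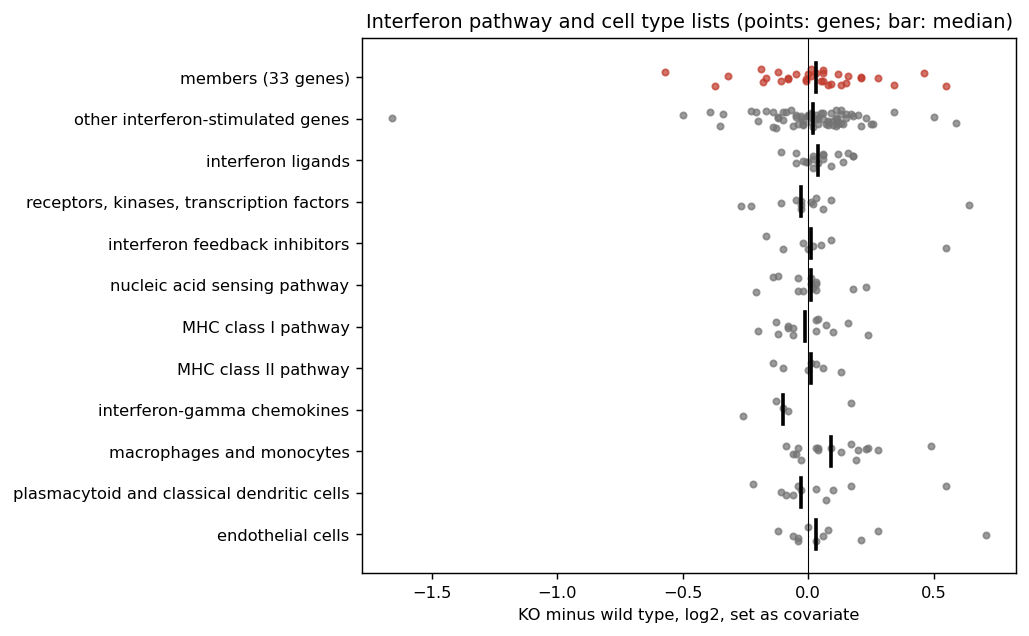
Difference between KO and wild type (horizontal axis, log2, set as covariate) of the genes of each list; each point is a gene and the black bar the median of its list, with the 33 measured members in red at the top. The medians of the members (0.03) and of the 73 other interferon-stimulated genes (0.02) lie close to 0, and single genes such as Cd274 at -1.66 lie far from their list.

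Cell type markers that could carry interferon-stimulated RNA were set beside these values. Of 17 macrophage and monocyte markers 12 were higher on the KO arrays and 5 lower, with a median of 0.09, and their mean level was 5.70 to 5.99 on KO and 5.72 to 5.86 on wild type arrays of set 1, and 7.23 to 7.35 against 7.04 to 7.20 in set 2. Of 15 lymphocyte and NK cell markers none lay above the olfactory receptor reference on all arrays, and 8, among them Cd3d, Cd4, Cd8a and Cd79a, lay above it on none. The 11 dendritic cell markers, which include Bst2, had a median difference of -0.03, the 11 endothelial markers 0.03 and the 10 neutrophil markers 0.10. Adipocyte genes lay mostly on the lower side over both sets, but not alike in each set. Of 11 brown adipocyte genes 9 were lower on the KO arrays, with a median of -0.17, and of 11 genes of adipocytes in general 9 were lower, with a median of -0.19. In each list 18.2% lay above 0, against 52.6% of all genes. The brown list had a median of -0.12 in set 1 and -0.01 in set 2. The general list had a median of -0.01 in set 1 and -0.28 in set 2. In set 2 KO lay below wild type for 6 genes of the general list (54.5%, against 19.1% of all genes). Liver genes were higher on the KO arrays of set 1, with a median of 2.79, and differed by 0.06 in set 2. The part of macrophage, neutrophil, adipocyte, liver and muscle RNA in the differences of the interferon-stimulated genes was not tested.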

How the data were processed

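Total RNA of interscapular brown adipose tissue from 4 KO and 4 wild type mice was measured on 8 Affymetrix arrays. The deposited log2 values were made by the authors with RMA in Affymetrix Expression Console (core-exon analysis), per the labels. The design text also names Transcriptome Analysis Console and a Clariom S array, whereas the table holds 72688 probe sets, 6732 of them controls. For software versions, annotation and the build, nothing is given in the sources used here. As the sets differ in median and in highest value (19.93 in set 1, 19.68 to 19.77 in set 2), the main fits compared genotypes within sets or with the set as a covariate. The step between the sets, given for the members and all named genes, includes this difference of scale. The number of arrays limits the precision.

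Of 65956 other probe sets, 31216 had 1 gene in the platform annotation, 1534 several and 33206 none. Symbols were updated through a RefSeq table of assembly GRCm38.p6: 23430 by gene ID and 7476 by symbol, with 310 kept as annotated. For 364 genes with more than 1 probe set, the one with the highest mean was used, which left 30743 genes, all tested without a filter.

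Differences were tested with limma 3.58.1 in R 4.3.3 (lmFit, eBayes, two-sided, Benjamini-Hochberg over all genes, adjusted p under 0.05), with the set as a covariate, and by contrasts of genotype by set. The code was tested on simulated data. The members and lists were chosen with earlier results of these data known, so counts and medians are given without a test of a list. Values on all arrays are given for the 2 members of each role group with the highest mean, the 2 with the smallest p, and the 6 with the smallest p for the difference between the sets. Of pathway lists, genes that passed are named, and of those of smallest p only some. H2-K1 was named outside this rule. The Gbp and Ifi200 families, Cd274 and the other list genes at an unadjusted p under 0.05, Ifngr1 and Cxcl9 were picked after their values were seen. A planned search of promoters for motifs was not run, since no promoter sequences were used here.

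Both groups carry replicates 1 to 4. For arrays that share a number, the correlation of deviations from the group mean was 0.701, 0.473, 0.478 and 0.61. With the set removed there is only 1 value per set, since the 2 arrays of a genotype then deviate equally in opposite directions. It was 0.107 in set 1 and -0.0887 in set 2. These are too few values to tell whether same-numbered arrays share more than the set. Alternatives were no block, a replicate block, a variance trend, ordinary least squares, a filter on low values, quantile normalization, median centring, the mean of probe sets, each set alone and each array left out.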

Additional observations from a re-analysis of the deposited data

Results flagged for a closer look

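The KO difference of Gbp11 differed between the sets by -1.58 (0.81 in set 1, -0.77 in set 2), by the limma test of the difference itself (adjusted p = 0.0498). That of Mndal differed by -1.40 (0.68 in set 1, -0.72 in set 2, adjusted p = 0.0467). Both calls were lost with each single array left out, with a variance trend, with ordinary least squares and with median centring. Neither gene is among the 34.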

How the results depend on the processing

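No setting called a member in any of the 4 comparisons. The replicate block called 0 genes (1234 at an unadjusted p under 0.05) and had 7 members at an unadjusted p under 0.05, and it changed no call. Genes called for the difference between the sets numbered 152, and 4 with a variance trend, 0 with ordinary least squares, 379 with the filter on low values, 82 with median centring and 0 to 10 with an array left out. Within set 2, where 1 gene was called, there were 14 with the filter, 0 with ordinary least squares, quantile normalization or set 2 alone, and 0 to 10 with an array left out. Within set 1 there were 0 to 14 with an array left out, and with the set as a covariate 0 to 1. The median over the members moved by less than the median standard error of a member in all 60 recomputed values. Of the recomputed values of single genes, 1055 kept their direction and side of the threshold, 31 turned sign, 22 lost a call and 1 gained one (Gbp9 for the difference between the sets, with the filter).

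Signs turned for 9 members, whose main differences lay within 0.13 of 0. With quantile normalization Oasl1 was at -0.05, Mx1 at -0.03 and Cxcl10 at -0.06. With median centring Oasl1 and Epsti1 were at -0.01 and Mx1 at -0.02. With an array left out the ranges were -0.02 to 0.21 for Ifih1, -0.06 to 0.06 for Ifit2, -0.03 to 0.05 for Oasl1, -0.02 to 0.03 for Mx1, -0.02 to 0.13 for Xaf1, -0.07 to 0.04 for Parp14, -0.05 to 0.18 for Trim30a, -0.04 to 0.05 for Epsti1 and -0.08 to 0.09 for Cxcl10. The causes were not tested.

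Irf1, Irf7 and Gbp2 kept an unadjusted p under 0.05 with each of the 8 arrays left out, Usp18 with 7, Gbp3 with 4 and Oas1a with 2. For Irf1 this holds for the probe set used, while its other probe set, near background, was higher on the KO arrays by 0.18. With the mean of probe sets, 5 members had such a p, against 6 in the main fit. The number of arrays, 2 per genotype and set, limits every within-set value, and for the 4 members at background the arrays give no level to compare.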

Other observations

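The Ifi200 genes, a cluster of interferon-inducible DNA-binding proteins, were looked at together after their values were seen. Of 7 measured, 6 differed upwards over both sets: Ifi207 (0.59), Ifi211 (0.50), Ifi204 (0.34), Ifi213 (0.14), Ifi209 (0.12) and Ifi208 (0.11), and Mndal differed by -0.02. None passed in the fit with the set as a covariate (limma, smallest adjusted p 0.983), and 3 had an unadjusted p under 0.05, beside 4.82% of all genes, of which 52.6% lay above 0. In set 1 all 7 were higher on the KO arrays, and for 6 the KO values lay above both wild type values, which 18.9% of all genes did. In set 2, 6 were higher, with KO above both wild type values for 2 (24% of all genes), and Mndal differed by -0.72. Ifi207 read 8.84, 8.41, 9.43 and 10.06 on the KO arrays against 7.96, 8.05, 9.04 and 9.35 on the wild type arrays, so that KO lay above in both sets. Ifi208 and Ifi213 lay above the olfactory receptor reference on no array, and near-identical neighbours in the cluster can share probe signal.

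Among 4 measured immunity-related GTPases, which interferon gamma induces, Igtp and Iigp1 lay below wild type in both sets, while Irgm1 (0.01) and Irgm2 (-0.10) differed by less than their standard errors.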
